A study of Mus musculus with 8 samples.

Results

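Fgf5, Etv1 and Phlda1 are a ligand and 2 response genes of the FGF-ERK pathway, and their levels were followed across sorted fractions of mouse ES cells. The 3 genes were taken by symbol from a supplementary probe list of the study, which pairs 1 array probe with each of them. They are 3 of the 1998 probes of that list that were used, on an array with 42006 distinct probes. The cells were the HV line, a reporter line of strain 129/Ola in which a Hex cDNA, an artificial internal ribosomal entry site and the fluorescent protein Venus were knocked into the first exon of Hex, an early endoderm gene. All fractions carried this allele, and all were grown with LIF, under conditions in which ES cells renew themselves, before sorting. Cells were sorted by Venus (V) and by the surface carbohydrate SSEA-1 (S), a marker of undifferentiated mouse ES cells, into Venus negative fractions with or without the carbohydrate (V-S+ and V-S-) and Venus positive ones (V+S+ and V+S-). Each fraction was collected from 2 targeted clones, 5.1 and 16.1, which gave 8 samples, and each sample was hybridised to 1 array with a universal mouse reference RNA in the other channel. The arrays of clone 5.1 were on 1 slide and those of clone 16.1 on another, and differences between clones and between slides cannot be told apart. Between 28316 and 29671 probes per sample were well above background, and the median probe had a Cy3 signal of 2.36 to 2.87 times background. With 2 arrays to a fraction, their number limits the precision. Nothing in the labels says that the fractions of a clone came from separate cultures, so p-values measure the spread between these samples. A sort gate on Venus fluorescence reports the Hex allele through its entry site and takes a range of cells rather than 1 cell type. In such bulk RNA, fewer cells of a type and less RNA per cell cannot be told apart.

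FGFs are secreted ligands that act through receptor tyrosine kinases, which activate Ras and, through Raf and MEK, the kinase ERK. In the mouse blastocyst, FGF signalling to ERK directs inner cell mass cells towards primitive endoderm, and in ES cells it prepares exit from self-renewal. Fgf5 encodes a secreted FGF ligand and is a classical marker of the epiblast after implantation. Etv1 encodes a transcription factor of the PEA3 subfamily of ETS proteins, whose genes are transcriptional targets of FGF signalling. Phlda1 encodes a pleckstrin homology-like domain protein and is induced by growth factors and ERK activity. The question was whether the rise of these genes on entry into the Venus positive state was complete in V+S+ cells, which still carry SSEA-1, or went on in V+S- cells, which have lost it.

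The study's probe list names a single 60-base probe for each gene, and all that follows rests on these 3 sequences. Further probes for these genes among the unnamed ones are not excluded. The first 30 bases of each are printed to identify the probe, and its gene is taken from that list alone. No letters are in capitals, since no part was singled out.
Fgf5 probe Z00054591-1: tgcgacccaggagcttaattcgggaatgtg
Etv1 probe Z00060489-1: tcacaggccagtagcattttatgtatctgg
Phlda1 probe Z00005095-1: tggacctttggaaggatcacctaacgtaat
The whole probes held 45.0% G and C for Fgf5, 41.7% for Etv1 and 40.0% for Phlda1. No other probe of the array shared a run of 20 bases with any of the 3, on either strand. The scanner files leave all probe positions unmapped, so where the probes lie within their transcripts was not analysed here.

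Levels are given as the log2 ratio of sample (Cy3) to reference (Cy5) after background correction and loess normalization. After loess, a value of 0 is the typical ratio of probes of like brightness, which need not be the level in the reference pool. A difference of 1 is a doubling of the normalized ratio. All 3 genes were higher in Venus positive than in Venus negative cells of both clones, and most of the difference was present in V+S+. Fgf5, the ligand, was low in Venus negative cells, with -0.69 in clone 5.1 and -0.34 in clone 16.1 of V-S+, and with -0.44 and 0.18 for V-S-. In Venus positive cells it reached 0.42 and 1.36 in V+S+ and 0.61 and 1.27 in V+S-, again with clone 5.1 first. All 4 Venus positive samples lay above all 4 Venus negative ones, while V+S+ and V+S- overlapped. Clone 16.1 held more Fgf5 than clone 5.1 in every fraction, and in V+S+ the clones lay as far apart as 0.89 ± 0.66 (SD, n = 2) shows.

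Etv1 stood at -1.12 and -1.18 in V-S+ and at -1.19 and -1.04 in V-S-, in clones 5.1 and 16.1. It was at -0.59 and -0.12 in V+S+ and at -0.41 and 0.02 in V+S-. The Venus positive samples were again all above the Venus negative ones, and the V+S+ and V+S- ranges overlapped. The Venus negative fractions were tight, with means of -1.15 ± 0.04 in V-S+ and -1.12 ± 0.11 in V-S-, and the Venus positive fractions were wider, at -0.36 ± 0.33 and -0.20 ± 0.30 (SD, n = 2).

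Phlda1 was at -0.99 and -0.78 in V-S+ and at -1.09 and -0.81 in V-S-. Its level was 0.04 and 0.56 in V+S+ and 0.34 and 0.69 in V+S-. The Venus negative means were -0.89 ± 0.15 with SSEA-1 and -0.95 ± 0.20 without it, and the Venus positive means 0.30 ± 0.36 with SSEA-1 and 0.51 ± 0.25 without it (SD, n = 2). As for the other two genes, SSEA-1 alone did not part the samples, and Venus did.

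**Figure D1:**
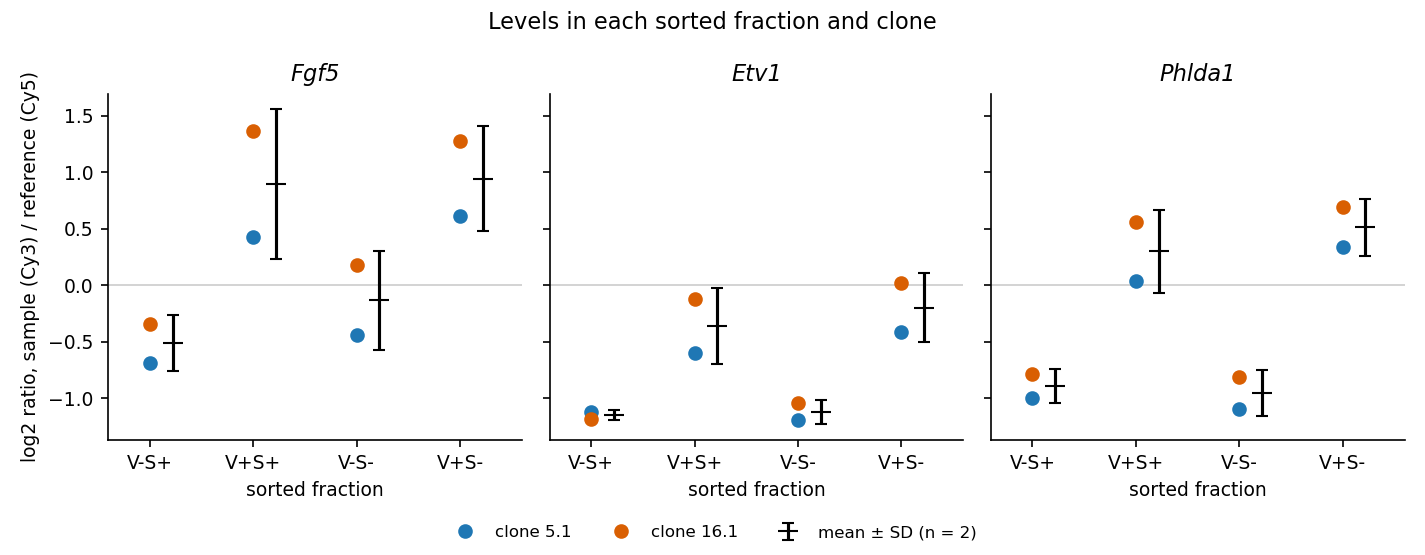
Log2 ratio of sample to reference (vertical axis) of Fgf5, Etv1 and Phlda1 in each sorted fraction (horizontal axis). Points are the 2 clones and black bars the mean ± SD (n = 2); for each gene the 4 Venus positive samples lie above the 4 Venus negative ones, and V+S+ overlaps V+S-.

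From low to high, the group means of Fgf5 and Etv1 ran from V-S+ through V-S- and then V+S+ to V+S-, and those of Phlda1 had V-S- below V-S+. The samples of the neighbours V-S+ and V-S- overlapped for each gene, as did those of V+S+ and V+S-, although within each clone Fgf5 was higher in V-S- (by 0.25 and 0.51), and Etv1 and Phlda1 were higher in V+S-. None of these neighbouring differences was called. The gap in the middle of the order, between Venus negative and Venus positive samples, was the one without overlap.

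The change lay in the sample channel. The Cy3 signal above background, divided by the median of its array, ran from 1.65 to 9.61 for Fgf5, a range of 5.83-fold. It ran from 40.5 to 94.0 for Etv1, or 2.32-fold, and from 55.1 to 187 for Phlda1, or 3.40-fold. In the Cy5 channel, which held the same reference on every array, the range was 1.14-fold for Fgf5, 1.07-fold for Etv1 and 1.11-fold for Phlda1. Repeat scans of an array differed by at most 0.07 log2 units for Fgf5, 0.04 for Etv1 and 0.06 for Phlda1. All 3 probes were well above background in 16 of 16 files and saturated in 0 of them. Fgf5 was the dimmest, with a Cy3 signal of 3.64 to 18.8 times the local background, against 60.3 to 171 times for Etv1 and 78.2 to 337 times for Phlda1. The offset that the background correction adds lowers the fold change of so dim a probe.

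**Figure D2:**
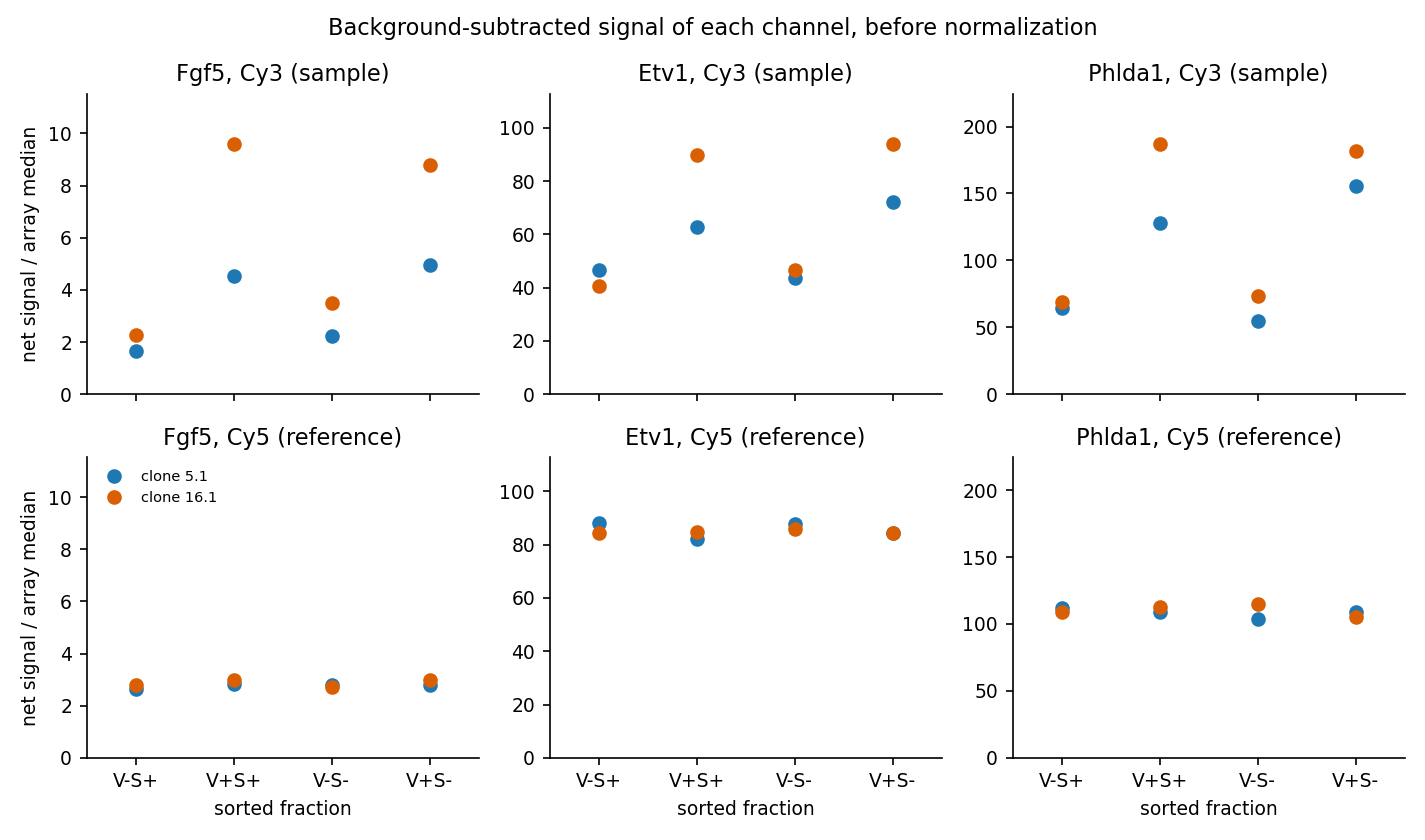
Background-subtracted signal divided by the array median (vertical axis), before normalization, for the sample channel (upper row) and the reference channel (lower row) in each fraction (horizontal axis). Points are the 2 clones; the sample channel spans 5.83-fold for Fgf5, 2.32-fold for Etv1 and 3.40-fold for Phlda1, and the reference channel at most 1.14-fold.

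From V-S+ to V+S+, the first step, all 3 genes were higher in both clones. Fgf5 was higher by 1.41 log2 units or 2.65-fold (SE 0.38), with 1.11 in clone 5.1 and 1.70 in clone 16.1. Etv1 was higher by 0.79 or 1.73-fold (SE 0.19), with 0.52 and 1.06 in the clones. Phlda1 was higher by 1.19 or 2.28-fold (SE 0.21), with 1.04 and 1.34. In the limma model without a term for clone, no member was called at an FDR of 0.05 and more than 1.5-fold. The adjusted p-values were 0.185 for Fgf5, 0.173 for Etv1 and 0.147 for Phlda1 (limma, Benjamini-Hochberg over 29484 probes). In that comparison 0% of all probes were called higher, although 5514 probes had an unadjusted p under 0.05. With clone as a block, which compares fractions within a clone, limma called all 3 members, with adjusted p-values of 0.00291, 0.0102 and 0.00258, where 3.87% of all probes were called higher. The blocked call of Etv1 was lost without clone 16.1 in V-S+ (0.0657) or in V+S+ (0.0836).

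From V+S+ to V+S-, the second step, differences were small. Fgf5 differed by 0.05 log2 units, with a 95% confidence interval from -0.88 to 0.98, and the clones had opposite signs, 0.19 in clone 5.1 and -0.09 in clone 16.1. With the scanner's processed signals, with the Cy3 channel alone and in the authors' table, its sign turned, though the difference stayed very small. The authors' table follows the processed signals and is not a separate check. Etv1 was 0.16 higher in V+S- (interval -0.30 to 0.63; 0.18 and 0.14 in the clones). Phlda1 was 0.21 higher (interval -0.30 to 0.72; 0.29 and 0.13 in the clones). No member was called, with adjusted p-values of 0.972, 0.776 and 0.720 (limma), and 0% of all probes were called higher, with 4429 probes at an unadjusted p under 0.05. With the V+S+ sample of clone 5.1 left out, the second step was -0.42 for Fgf5, -0.073 for Etv1 and -0.046 for Phlda1, and with that of clone 16.1 left out it was 0.52, 0.40 and 0.47. With clone as a block the intervals narrowed to -0.25 to 0.35 for Fgf5, -0.15 to 0.47 for Etv1 and 0.02 to 0.40 for Phlda1. No member was called with the block either, at adjusted p-values of 0.835, 0.463 and 0.138, where 1.75% of all probes were called higher. For Phlda1 the block interval lay above 0 before adjustment for multiple tests. The highest upper bound of the 3 block intervals, 0.47 for Etv1, was below a change of 1.5-fold.

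From V-S+ to V+S-, the whole distance, the 3 genes rose. Fgf5 rose by 1.46 log2 units or 2.75-fold (SE 0.38; adjusted p = 0.0497, limma), Etv1 by 0.95 or 1.93-fold (SE 0.19; adjusted p = 0.0284) and Phlda1 by 1.40 or 2.64-fold (SE 0.21; adjusted p = 0.0171). Over all probes, 5.73% were called higher, 1688 against 377 lower. With the scanner's processed signals that split was 1541 against 779, with the Cy3 channel alone 1343 against 683 and 1210 against 522 in the authors' table. With the V-S+ sample of clone 5.1 left out the adjusted p-values became 0.211, 0.130 and 0.103, and with that of clone 16.1 left out they were 0.144, 0.132 and 0.106. They were 0.216, 0.124 and 0.0915 with clone 16.1 taken out of V+S-, and the 3 genes were uncalled in each of these cases. Fgf5 also lost its call with clone 5.1 taken out of V+S- (0.0671) or either clone out of V-S- (0.0744), and Etv1 with either clone out of V-S- (0.0591). The Fgf5 call was also lost in 8 of 12 alternatives of processing or testing. Among them the processed signals and the authors' table hold like ratios but are counted separately. The adjusted p-values ran from 0.0502 without background correction to 0.142 in the unmoderated test, which also ended the calls of Etv1 and Phlda1. With clone as a block, where 8.87% of all probes were called higher, the 3 genes were called with each of the 8 samples left out in turn. The study drew up its probe list by an overall test on these same arrays, so a call of a listed gene is not independent evidence that it changed.

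**Figure D3:**
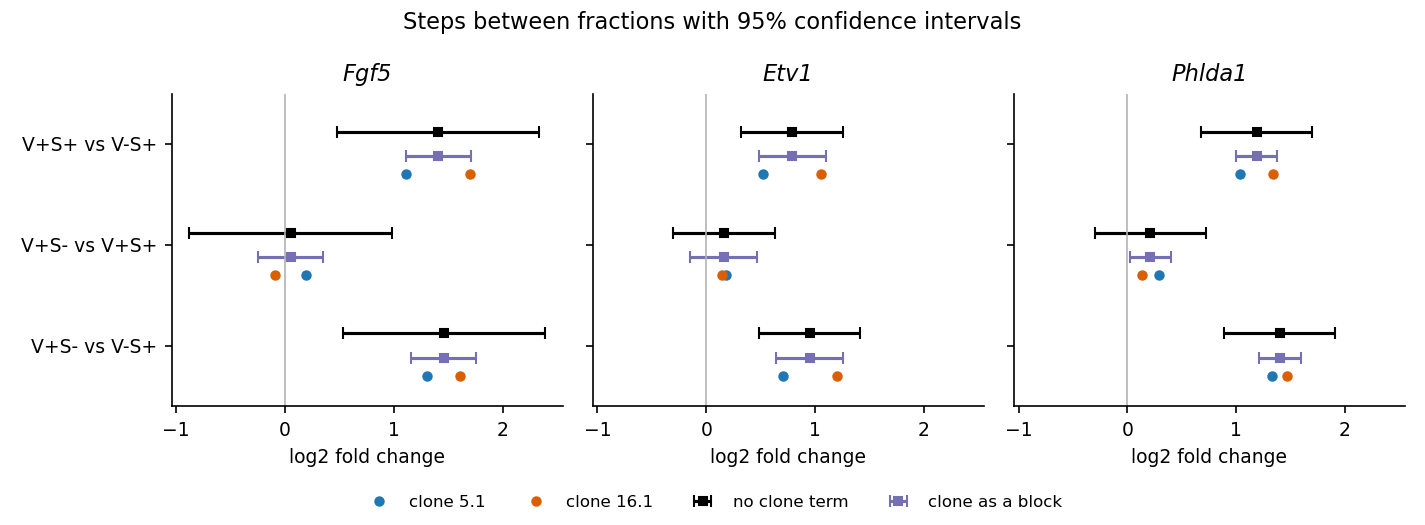
Log2 fold change (horizontal axis) of Fgf5, Etv1 and Phlda1 for the first step, the second step and the whole distance (vertical axis). Squares with bars are estimates with 95% confidence intervals, in black without a clone term and in purple with clone as a block, and dots are the 2 clones; the first-step intervals lie above 0 for every gene and the second-step intervals without a clone term span 0.

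The steps were also compared with each other, as the first step less the second, a comparison added after the data were seen. This difference was 1.36 log2 units for Fgf5, with 0.92 in clone 5.1 and 1.79 in clone 16.1. It was 0.63 for Etv1 (0.34 and 0.91 in the clones) and 0.98 for Phlda1 (0.74 and 1.21). The first step was thus the larger one in both clones for each gene. Without a clone term limma called no member (adjusted p-values of 0.754, 0.762 and 0.713) and 0% of all probes, with 2025 at an unadjusted p under 0.05. With clone as a block Fgf5 and Phlda1 were called, with adjusted p-values of 0.0443 and 0.0355, and Etv1 was not, at 0.195, where 1.08% of all probes were called higher. Both of these blocked calls held in 2 of 8 cases with a sample left out, namely clone 5.1 of V-S+ or of V+S+, and were lost in the other 6, with adjusted p-values of up to 0.250 for Fgf5 and 0.217 for Phlda1. With the block on the scanner's processed signals limma called 0 of all 29484 probes here, with 5259 at an unadjusted p under 0.05. Leaving out the V+S+ sample of clone 16.1 lowered the differences to 0.42, 0.16 and 0.46, and leaving out that of clone 5.1 raised them to 2.30, 1.10 and 1.49. The size of the difference therefore rests on 2 V+S+ samples that lay apart.

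As a share of the log2 rise from V-S+ to V+S-, Fgf5 had 96.6% of it in V+S+, from the group means, with 85.4% in clone 5.1 and 106% in clone 16.1. Etv1 had 83.0%, with 74.2% and 88.2%, and Phlda1 had 84.9%, with 78.0% and 91.1%. Over the 1688 probes whose V+S- level was called above V-S+, the median share was 52.1%, with quartiles of 39.1% and 65.9%. The members stood at percentiles of 97.5, 92.4 and 93.6 of these shares. The share was lower in clone 5.1 than in clone 16.1 for each member, as it was for the median of all such probes, at 40.5% and 62.9%. The share has V-S+ on both sides of the division and was not tested.

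**Figure D4:**
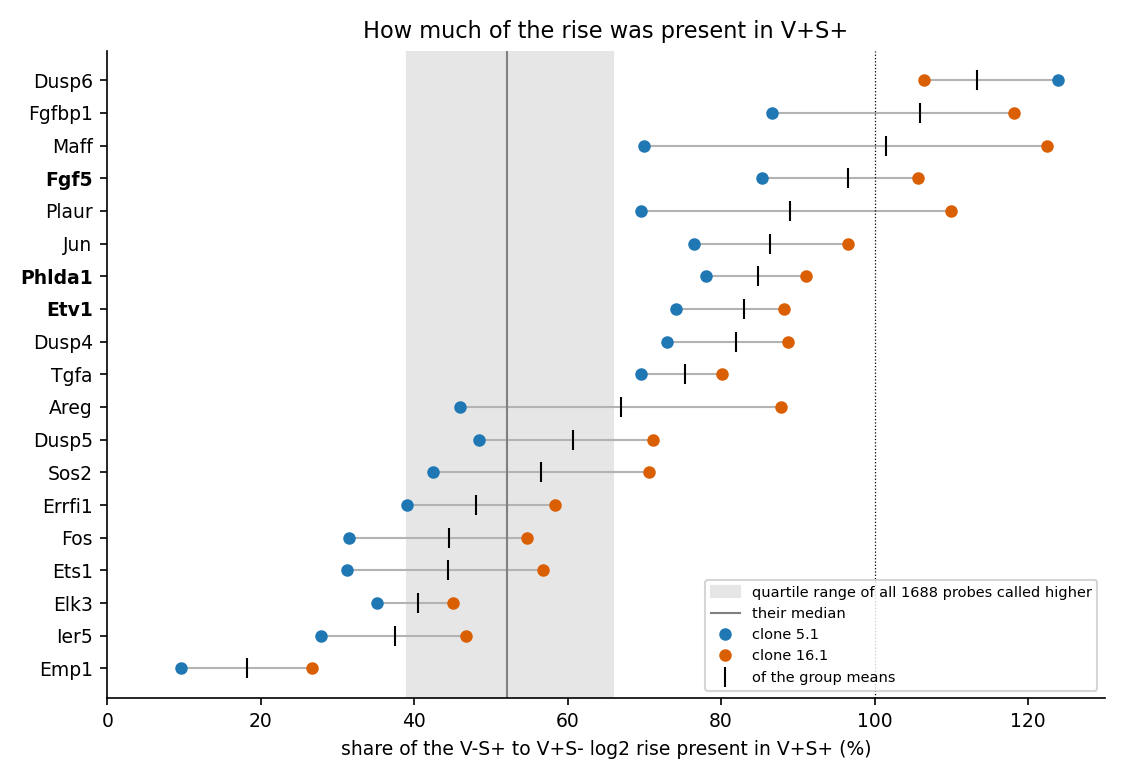
Share of the log2 rise from V-S+ to V+S- that was present in V+S+ (horizontal axis, percent) for the 19 listed pathway genes called higher in V+S- (vertical axis). Dots are the 2 clones, ticks the group means, and the grey band the range between the quartiles of all 1688 probes called higher; Fgf5, Etv1 and Phlda1 lie to the right of the band in both clones.

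Loss of SSEA-1 without Venus was not accompanied by a call of any member. From V-S+ to V-S-, Fgf5 differed by 0.38 (interval -0.55 to 1.31, and 0.08 to 0.68 with the clone block, adjusted p = 0.560 in limma), Etv1 by 0.03 (interval -0.44 to 0.50) and Phlda1 by -0.06 (interval -0.57 to 0.44). The adjusted p-value was 1.00 for each in limma, which called 0 of 29484 probes here with or without the clone block, and 834 probes had an unadjusted p under 0.05. Among SSEA-1 negative cells, Venus parted the genes again. Etv1 rose by 0.92 from V-S- to V+S- (adjusted p = 0.0286, limma) and Phlda1 by 1.46 (adjusted p = 0.0149), where 6.30% of all probes were called higher. Both calls were lost with either clone taken out of V-S- (adjusted p-values from 0.0906 to 0.155) or clone 16.1 out of V+S- (0.126 for Etv1 and 0.0806 for Phlda1), and that of Etv1 also with either clone out of V-S+ (0.0601). Fgf5 was higher by 1.08 with an adjusted p of 0.0972 and was called only with the clone block (adjusted p = 0.00104), where 8.96% of all probes were called higher. From V-S- to V+S+, which changes both markers, the values were 1.03 for Fgf5, 0.76 for Etv1 and 1.25 for Phlda1. None was called without the block, where 0% of probes were called and 6605 had an unadjusted p under 0.05, and all 3 were called with it, where 4.76% of probes were called higher. The blocked call of Etv1 was lost without clone 16.1 in V+S+ (0.0732) or in V-S- (0.0733). With the V+S+ sample of clone 5.1 left out, Etv1 and Phlda1 were called without the block as well, at adjusted p-values of 0.0477 and 0.0370, where 2.94% of all probes were called higher. These comparisons share samples with each other.

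The Venus effect in SSEA-1 negative cells was set against that in SSEA-1 positive cells. The difference was -0.33 for Fgf5 (interval -1.64 to 0.98), 0.13 for Etv1 (interval -0.53 to 0.79) and 0.28 for Phlda1 (interval -0.44 to 0.99). None was called by limma without the clone block, where 0% of all probes were called and 2340 had an unadjusted p under 0.05, or with it, where 0.828% were called higher. With the block and median centring, which moved the median of all probes to 0.20, Phlda1 was called at 0.59 (adjusted p = 0.0225), where 7.63% of all probes were called higher. With 1 sample left out at a time and no block, the difference of Phlda1 lay between 0.018 and 0.53.

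The pathway was followed through 7 lists, with 100 symbols in all, of which the study's probe list names 31, the 3 members included. The remaining symbols have no named probe here and were not analysed. From V-S+ to V+S-, 19 of the 31 were called higher and 3 lower in limma, with a median difference of 0.95 against 0.01 over all 29484 probes. Without the members the counts were 16 higher and 3 lower of 28. Since that probe list holds genes chosen for differing between these fractions, the proportion to set beside this is that of the list as a whole: 962 of its 1998 probes were called higher, 231 were called lower, and its median was 0.67. These calls rested on single samples. With either V-S+ sample left out, or with clone 16.1 out of V+S-, limma called 0 of the 31 higher, although 19 to 28 of them were higher at an unadjusted p under 0.05, and 0 of all 29484 probes were called higher, so that each rise over the whole distance given here and below as called without the block was lost there. With either clone out of V-S- 10 were called higher, and 11 with clone 5.1 out of V+S-. The 3 lower calls were lost in those cases and also with clone 5.1 out of V+S-. In the first step the median of the 31 was 0.64, 28 of them were higher in both clones, and 28 stayed higher on average in each of 5 other scalings. In the whole list the first-step median was 0.33, with 1238 higher and 660 lower in both clones. None of the 31 was called in the first step without the block. With it 18 were called higher and 0 lower, against 510 higher and 175 lower in the whole list, and 15 of the 18 were no members. Without clone 16.1 in V-S+ this count was 10, and without clone 16.1 in V+S+ 11. In the second step the median of the 31 was 0.17, and 18 were higher and 7 lower in both clones, whereas the whole list had a median of 0.24, with 1269 higher and 439 lower. With the block 5 were called, all higher, against 340 higher and 46 lower in the whole list. Without clone 5.1 in V+S+ the count was 2 and without clone 16.1 there 8. With either V+S- sample left out, and with the block on the scanner's processed signals, limma called 0 of all 29484 probes in the second step, with 6035 to 8077 at an unadjusted p under 0.05. Every second step given below as called with the block was therefore lost in those 3 cases.

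**Figure D5:**
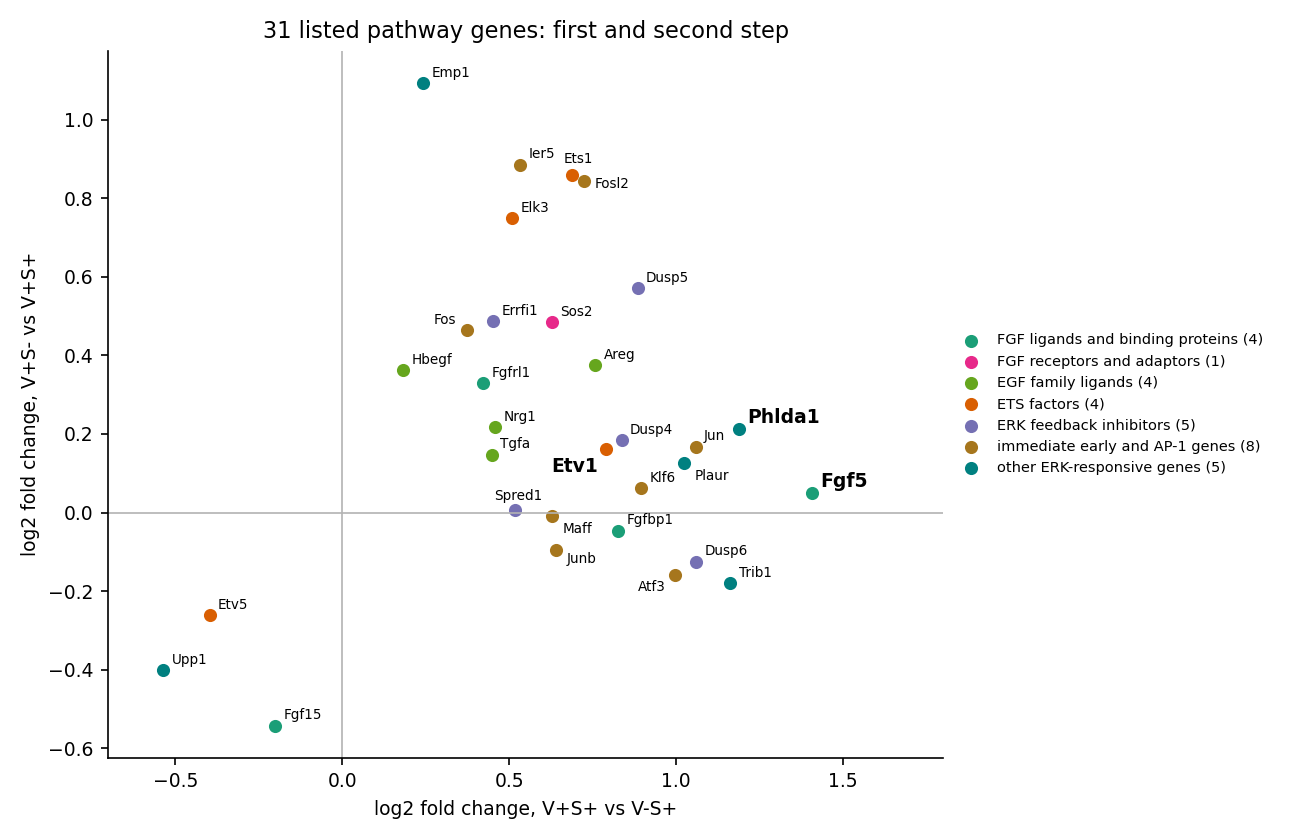
Log2 fold change of the first step, V+S+ vs V-S+ (horizontal axis), and of the second step, V+S- vs V+S+ (vertical axis), for the 31 pathway genes that could be named, coloured by list. Both axes use the V+S+ samples; Fgf5 has the largest first step of the 31 and lies near 0 on the second.

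Among FGF ligands and binding proteins, Fgf5 was joined by 3 genes. Fgfbp1 encodes a carrier protein that releases FGFs from the matrix. In clones 5.1 and 16.1 the V-S+ samples had log2 ratios of 1.33 and 1.18, the V+S+ samples 1.86 and 2.31, and the V+S- samples 1.94 and 2.13. It rose by 0.78 over the whole distance (adjusted p = 0.0274, limma), with 0.83 in the first step and -0.05 in the second, a sign that turned with median centring in place of loess. Fgfrl1, a receptor-like protein without a kinase domain, differed by 0.75 over the same distance and was not called (adjusted p = 0.0614). Fgf15, the ligand of the enterohepatic axis, fell by 0.74 (adjusted p = 0.0157), and most of its fall, -0.54, lay in the second step. Of 12 receptors and adaptors only Sos2, an exchange factor that activates Ras, was named, and it rose by 1.11 (adjusted p = 0.0327), with 0.63 in the first step and 0.48 in the second.

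EGF family ligands activate the same cascade through EGF receptors, and 4 of 8 were named. From V-S+ to V+S-, amphiregulin (Areg) rose by 1.13 (adjusted p = 0.0187, limma) and Tgfa by 0.60 (adjusted p = 0.0257). Hbegf and Nrg1 were higher by 0.54 and 0.68 and were not called. All 4 were higher in both clones at each step, with differences of 0.18 to 0.76 in the first and 0.15 to 0.37 in the second. The Tgfa second step turned sign with the Cy3 channel alone. Among SSEA-1 negative cells all 4 were called higher with Venus than without it, where 6.30% of all probes and 1060 of the 1998 listed ones were. These calls were lost with either clone out of V-S- or clone 16.1 out of V+S-, where limma without the block called 0 of all probes and 6644 to 7987 had an unadjusted p under 0.05.

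The ETS factors did not move as one. Etv5 belongs to the same PEA3 subfamily as Etv1, yet it fell by 0.66 over the whole distance (adjusted p = 0.0171 in limma). Its V-S+ samples had log2 ratios of 1.19 and 1.27, the V+S+ samples 0.97 and 0.70, and the V+S- samples 0.58 and 0.57, so that both steps were negative in both clones. Ets1 rose by 1.55 (adjusted p = 0.0205) and Elk3, a ternary complex factor that ERK phosphorylates, by 1.26 (adjusted p = 0.0152). Their second steps of 0.86 and 0.75 compare with first steps of 0.69 and 0.51, and in clone 16.1 the first step of Ets1 (0.91) was above its second (0.69). With the clone block both second steps were called, and both calls were lost with either V+S- sample left out. The share of the rise present in V+S+ was 83.0% for Etv1, 44.5% for Ets1 and 40.4% for Elk3, differences that were not tested.

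ERK feedback inhibitors had a higher level after the whole distance for 5 of 5 named genes, and 4 were called, against 5.73% of all probes and 962 of the 1998 listed ones. Dusp6 encodes a phosphatase specific for ERK and is widely used as a readout of FGF signalling. Its V-S+ samples stood at -1.13 and -1.04, its V+S+ samples at -0.21 and 0.16, and its V+S- samples at -0.39 and 0.09. It rose by 0.93 over the whole distance (adjusted p = 0.0278, limma), with 1.06 in the first step and -0.12 in the second, and V+S- lay below V+S+ in both clones. Dusp4, a nuclear ERK phosphatase, rose by 1.02 (adjusted p = 0.0142), of which 0.84 lay in the first step. Dusp5 rose by 1.46 (adjusted p = 0.0257) and Errfi1, an inhibitor of EGF receptors, by 0.94 (adjusted p = 0.0113), with second steps of 0.57 and 0.49. Spred1, an inhibitor of Raf activation, was 0.52 higher and was not called (adjusted p = 0.0736).

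Immediate early and AP-1 genes, which ERK activity induces within minutes, were higher in both clones for 8 of 8 named genes at the first step and over the whole distance, and 4 were called over the latter. In the whole probe list 962 of 1998 were called there, and 1238 were higher in both clones at the first step. Jun rose by 1.23 (adjusted p = 0.0268, limma), Ier5 by 1.42 (adjusted p = 0.0177), Fos by 0.84 (adjusted p = 0.0122) and Maff by 0.62 (adjusted p = 0.0384). Fosl2 was 1.57 higher with an adjusted p of 0.0503. Jun had 86.3% of its rise in V+S+, against 44.6% for Fos and 37.6% for Ier5. The second step was called with the clone block for Fosl2 at 0.84 and Ier5 at 0.89, and not with either V+S- sample left out. It was close to 0 for Klf6 and Maff, at 0.06 and -0.01, and -0.16 for Atf3. Junb, an AP-1 subunit, was 0.54 higher over the whole distance and was not called (adjusted p = 0.0690, limma), with 0.64 in the first step and -0.095 in the second. The second steps of Junb and Maff turned sign with median centring.

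Other ERK-responsive genes held Phlda1 and 4 more. Plaur, the urokinase receptor, rose by 1.15 over the whole distance (adjusted p = 0.0239, limma), with 1.02 in the first step. Its second step was 0.13, upward in clone 5.1 and downward in clone 16.1. Trib1, a pseudokinase, was 1.16 higher in the first step and -0.18 in the second, and its total of 0.98 was not called (adjusted p = 0.0546). Emp1, an epithelial membrane protein, had its larger difference in the second step, with V-S+ samples at -3.58 and -3.64, V+S+ samples at -3.45 and -3.28, and V+S- samples at -2.25 and -2.29. Its rise of 1.34 (adjusted p = 0.0113) was present in V+S+ to 18.2%. Upp1, uridine phosphorylase, fell by 0.94 (adjusted p = 0.0404), at both steps in both clones.

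Leaving out the 3 members, 16 pathway genes were called higher over the whole distance, and the median share present in V+S+ was 63.8%, with 47.2% in clone 5.1 and 75.7% in clone 16.1. Fgfbp1, Dusp6 and Maff had shares above 100% in the group means, that is, a mean in V+S+ at or above that in V+S-. In clone 5.1 the share was 86.6% for Fgfbp1 and 70.0% for Maff, and the second step of both turned sign with median centring. Plaur, Jun and Dusp4 had 89.0%, 86.3% and 81.9%, beside the 3 members. In clones 5.1 and 16.1 these shares were 69.5% and 110% for Plaur, 76.5% and 96.5% for Jun, and 72.9% and 88.7% for Dusp4. Errfi1, Fos, Ets1, Elk3, Ier5 and Emp1 had shares under 50% in the group means and in clone 5.1. In clone 16.1 Errfi1, Ets1 and Fos had 58.4%, 56.8% and 54.8%, and Elk3, Ier5 and Emp1 stayed under 50%. The listed genes thus ran from 18.2% to 113% in the group means, and no single share held for the pathway.

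Fgf5 is also a marker of primed epiblast, and of the 8 genes on a list of such markers 1 more is named, Pou3f1, a POU factor of epiblast and neural progenitors. Its V-S+ samples were at 0.34 and 0.59, its V+S+ samples at 1.44 and 2.10, and its V+S- samples at 1.33 and 1.82. It rose by 1.11 over the whole distance (adjusted p = 0.0377, limma), with 1.30 in the first step and -0.20 in the second. Over both genes the mean log2 ratio of the Venus negative samples was -0.17 to 0.13 with SSEA-1 and 0.07 to 0.51 without it. That of the Venus positive samples was 0.93 to 1.73 with SSEA-1 and 0.97 to 1.55 without it. Both genes come from the probe list chosen for differing between these fractions. The other markers have no named probe here and were not analysed.

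Markers of other cell types moved with the fractions. Of 15 primitive endoderm markers 5 were named, and all 5 rose from V-S+ to V+S- and were called. There 5.73% of all probes and 962 of the 1998 listed ones were called higher. The mean log2 ratio of the 5 markers was -0.92 to -0.78 in V-S+ cells and -0.94 to -0.82 in V-S- cells. It was -0.54 to -0.17 in V+S+ cells and 0.28 to 0.33 in V+S- cells. Gata6, a master regulator of primitive endoderm, was 0.17 higher in the first step and 0.74 in the second, and rose by 0.90 in all (adjusted p = 0.0196, limma). Sox7 rose by 1.77 (adjusted p = 0.0154), with 0.40 and 1.37, and Dab2 by 1.01 (adjusted p = 0.0157), with 0.47 and 0.54. The second step was the larger in both clones for 3 of the 5 and in the mean alone for Dab2, whose steps in clone 16.1 were 0.50 and 0.31. The exception was Lrp2, an endocytic receptor, with 1.08 and 0.14.

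Of 8 pluripotency markers 3 were named, and all 3 fell from V-S+ to V+S- and were called. There 377 of all 29484 probes and 231 of the 1998 listed ones were called lower. Nanog fell by 0.96 (adjusted p = 0.0298, limma), with -0.72 in the first step and -0.24 in the second. Pou5f1 fell by 1.01 (adjusted p = 0.0413), with 0.22 in the first step and -1.23 in the second. Both falls lost their call with clone 16.1 out of V+S-, where every lower call over all probes was lost. With either V-S+ sample left out, nearly all lower calls over all probes were lost as well. Of 11 mesenchymal and fibroblast markers 4 were named, Col1a2, Postn, Twist2 and Vim, and all of them rose over the whole distance, by 1.44 to 2.14. All 4 were called, where 5.73% of all probes and 962 of the 1998 listed ones were called higher. The mean log2 ratio of the 4 markers was -3.98 to -3.63 in V-S+ cells and -3.87 to -3.66 in V-S- cells. It was -3.60 to -2.92 in V+S+ cells and -2.29 to -1.56 in V+S- cells. The second steps of these markers were 0.80 to 1.56 and were called with the clone block for 4 of 4. There 1.75% of all probes and 340 of the 1998 listed ones were called higher. The marker calls were lost with either V+S- sample left out, and 0 of 4 were called with the block on processed signals. Whether these markers reflect other cells, and the part of such cells in the levels of Fgf5, Etv1 and Phlda1, was not tested.

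Across the 8 samples the members followed one another, with a Pearson r of 0.98 between Etv1 and Phlda1, 0.96 between Fgf5 and Etv1 and 0.95 between Fgf5 and Phlda1. These are descriptions over samples that share clones and slides. Among the named probes, the 5 most like Fgf5 were Plxdc2, Abcg2, Kif21a, Itga8 and Syt13, with r from 0.984 to 0.993. Those most like Etv1 were Chst1, Zswim6, Mlkl, Bcar1 and Plekhg2, with r from 0.992 to 0.995, and those most like Phlda1 were Plin2, St14, Cap2, Zswim6 and Tmcc3, with r from 0.995 to 0.997. Zswim6 was among the nearest to both Etv1 and Phlda1. These 5 were picked out of 1998 probes chosen for differing between fractions, and no p is given. No gene of the 7 pathway lists was among the nearest 5 of any member.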

How the data were processed

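RNA of 8 samples, 4 fractions in each of 2 clones, was measured on two-colour arrays. The authors labelled the sample with Cy3 and the reference with Cy5, without a dye swap, and deposited 16 scanner files, 2 repeat scans per array, with the intensity of each spot as written by Agilent Feature Extraction 9.5. They also deposited a table of log10 values, which after centring each probe matched their processed ratios. The authors' table was used as an alternative only. The paper's methods give pairwise comparisons at an FDR of 0.05 and more than 1.5-fold, and these thresholds were kept.

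In limma 3.58.1 (R 4.3.3), mean signals were corrected by normexp for median local backgrounds (offset 50) and loess was applied within each scan, control spots being left out. Spots marked as outliers were set missing, repeated spots were averaged, and both scans of an array gave 1 mean log2 ratio, Cy3 over Cy5 of the deposited intensities. A probe was kept if some fraction had it well above background on its 4 files, which 29495 of the 42006 distinct probes met, and the 29484 of them without missing values were tested. All 8 samples entered 1 fit (lmFit, eBayes, Benjamini-Hochberg adjustment over all 29484 probes) with fraction as the only term. The clone number pairs the samples, since a number is 1 cell line, and deviations of a clone correlated across probes between fractions with r from 0.588 to 0.811 over 6 pairs. The fit with clone as a block is therefore given beside the other. The fits were tested on simulated data.

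The files hold no gene names, and names came from a supplementary probe list of the study, of which 1998 of 2169 rows were used, with older symbols brought up to date through RefSeq synonyms. Named in the text were the members, every gene of the 7 pathway lists and the primed epiblast list that has a named probe, the 5 probes most correlated with each member, and Gata6, Sox7, Dab2, Nanog and Pou5f1 as a check; Lrp2, Col1a2, Postn, Twist2 and Vim were named after their values were seen. The members and lists were chosen with earlier results of these data known. Alternatives covered the background correction, scaling, filter, scans, deposited table, moderation, groups in the fit, clone block and each sample left out. Probe sequences were read from the scanner files.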

Additional observations from a re-analysis of the deposited data

Results flagged for a closer look

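The clones had opposite signs in 2 comparisons of the members, which was not tested. From V+S+ to V+S-, Fgf5 differed by 0.19 log2 units in clone 5.1 and by -0.090 in clone 16.1. From V-S+ to V-S-, Etv1 differed by -0.077 in clone 5.1 and by 0.14 in clone 16.1.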

How the results depend on the processing

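Differences below are log2 fold changes. With clone as a block, for the pairing, the first step was called for Fgf5 (1.41), Etv1 (0.79) and Phlda1 (1.19), as were V+S+ over V-S- (1.03, 0.76 and 1.25) and Fgf5 in V+S- over V-S- (1.08). The estimates themselves are the same with and without the block, since every clone has every fraction. Listed pathway genes called higher rose with it from 0 to 18 in the first step, 0 to 5 in the second and 0 to 22 for V+S+ over V-S-. The second-step calls with the block all vanished, over all 29484 probes, without either V+S- sample and with processed signals. The block together with other signals was chosen after seeing the data, and the first step was called each time, at 1.66, 0.74 and 1.12 with the scanner's processed signals, 1.43, 0.69 and 1.13 with Cy3 alone, and 1.36, 0.74 and 1.11 with median centring. For V+S+ over V-S- these were 1.15, 0.71 and 1.18, then 1.05, 0.67 and 1.24, then 1.10, 0.92 and 1.39, all called, and for Fgf5 in V+S- over V-S- 1.14, 1.02 and 1.22. Listed genes called higher were then 17, 18 and 16 in the first step, 0, 5 and 6 in the second and 23, 23 and 25 for V+S+ over V-S-; with Cy3 alone 1 was lower in each step, and with median centring 1 was lower in V+S- relative to V-S-. Over the whole distance Fgf5 lay close to the threshold and was not called with processed signals (1.66), no background correction (1.48), median centring (1.48), Cy3 alone (1.41), no filter on dim probes (1.46), the second scan alone (1.47), the authors' table (1.66) or the unmoderated test (1.46), which also called neither Etv1 (0.95) nor Phlda1 (1.40). The second step of Fgf5 turned sign with processed signals (-0.0045), Cy3 alone (-0.025) and the authors' table (-0.0042), and the scanner's signals and Cy3 alone gave the same values with the block. With median centring Etv1 in V-S- was -0.18 from V-S+, and 0 listed genes were called lower in V+S- relative to V-S-. The cause of these changes was not tested. The share of the rise present in V+S+ moved by less than the spread between clones in each of 4 other scalings.

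With each sample left out in turn, the first step lay between 0.94 and 1.88 for Fgf5, 0.55 and 1.02 for Etv1, and 0.93 and 1.45 for Phlda1. The second step lay between -0.42 and 0.52, -0.073 and 0.40, and -0.046 and 0.47, and the whole distance between 1.13 and 1.79, 0.74 and 1.17, and 1.22 and 1.58. For V-S- over V-S+ the range was 0.072 to 0.69 for Fgf5, -0.045 to 0.11 for Etv1 and -0.21 to 0.079 for Phlda1. For V+S- over V-S- it was 0.75 to 1.41 for Fgf5, 0.71 to 1.14 for Etv1 and 1.29 to 1.64 for Phlda1, and for V+S+ over V-S- 0.56 to 1.5, 0.52 to 0.99 and 0.99 to 1.51. The Venus effect without SSEA-1 less that with it ran from -0.80 to 0.14 for Fgf5, -0.10 to 0.37 for Etv1 and 0.018 to 0.53 for Phlda1. Listed genes called ranged from 0 to 24 higher and 0 to 3 lower over the whole distance, from 0 to 26 and 0 to 3 for V+S- over V-S-, and from 0 to 17 higher for V+S+ over V-S-. With the block as well, chosen after seeing the data, the first step was called for Fgf5 and Phlda1 in 8 of 8 cases and for Etv1 in 6; of the members' ranges it widened only that of Etv1 in V-S- over V-S+, to -0.18 to 0.24. Listed genes called higher with the block ranged from 10 to 20 in the first step, 0 to 8 in the second, 23 to 27 over the whole distance, 26 to 27 for V+S- over V-S- and 18 to 24 for V+S+ over V-S-, with 0 to 1 lower in either step and 0 to 1 for V+S+ over V-S-.

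With 2 arrays per fraction, 4 residual degrees of freedom without the block and 1 named probe per gene, the precision is that of the intervals given. Fgf5 was dim, and its first step moved from 1.41 to 1.66 with the scanner's processed signals.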
